A study of Mus musculus with 2 samples.

Results

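Atrial-like cardiomyocyte nuclei were selected from single-nucleus RNA-seq of mouse heart by 3 limits on the share of unique molecular identifiers (UMIs, 1 per captured transcript). Ttn, Myh6, Ryr2, Tnnt2, Ctnna3 and Trdn together made at least 3% of the UMIs of a nucleus, mitochondrially encoded genes made at most 20%, and Sln, Myl4, Myl7 and Nppa together made at least 1%. Of 18164 nuclei, 2111 passed the cardiomyocyte limits, and 66 of these were atrial-like. Of the 66 members 32 were among the 1189 cardiomyocyte nuclei of the control library, and 34 among the 922 of the PD-1 inhibitor library (the anti-PD-1 library). The other 1157 and 888 cardiomyocyte nuclei were the comparison. The hearts were those of male C57BL/6 mice that were 8 weeks old when dosing began. Mice of the PD-1 inhibitor group received an anti-mouse PD-1 antibody at 5 mg/kg into the peritoneum on days 1 and 14 of 28, and mice of the control group received PBS on the same days. Each condition was 1 library, the number of hearts in it and the heart chambers dissected are not given in the sources used here, and library and treatment cannot be told apart. No test was made, and the 95% intervals given cover only the error of counting.

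Atrial cardiomyocytes form the thin walls of the upper chambers and contract before the ventricles. They carry their own myosin light chains, the regulatory chain Myl7 and the essential chain Myl4, where ventricular cells carry Myl2 and Myl3. Their calcium pump is restrained by sarcolipin (Sln), and by phospholamban (Pln) to a larger extent in ventricular cells. They are also endocrine cells, which store atrial natriuretic peptide (Nppa) in granules and release it on stretch. Acetylcholine from the vagus nerve opens a potassium channel in them that is built from the products of Kcnj3 and Kcnj5.

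The median control member held 1097 UMIs and the median anti-PD-1 member 1153, against 1441 and 1467.5 in the other cardiomyocyte nuclei. All members together held 43314 and 60164 UMIs, and the other cardiomyocyte nuclei held 2244203 and 1681250. A single member of 10849 UMIs gave 18.0% of the UMIs of the anti-PD-1 members. Levels below are UMIs summed over the nuclei of a class in 1 library, scaled to a total of 1000000 over all genes (counts per this total, CPM). A gene without a UMI could lie at up to 69.3 CPM in the control members and 49.9 CPM in the anti-PD-1 members, the level of 3 counts. Scrublet called 585 of 10197 and 337 of 7967 nuclei doublets, none of them a member. The libraries shared 48 barcodes, none of which belonged to a member.

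The members were chosen by the 4 atrial genes, so their levels are a description. Nppa, which encodes the atrial natriuretic peptide precursor, stood at 14868 CPM (95% interval 13742 to 16062) in the control members and 14709.8 CPM (95% interval 13756 to 15712) in the anti-PD-1 members, and the intervals overlapped. Myl4 stood at 7988 and 10239 CPM, Myl7 at 4779 and 8244 CPM and Sln at 3094 and 5369 CPM, in that order of libraries. Log2 ratios of the anti-PD-1 over the control members were 0.36 (95% interval 0.17 to 0.55) for Myl4, 0.78 (95% interval 0.55 to 1.03) for Myl7 and 0.79 (95% interval 0.50 to 1.10) for Sln. In the other cardiomyocyte nuclei, which the rule holds under 1% of the 4 genes, the same ratios were -0.28 (95% interval -0.73 to 0.16), 0.37 (95% interval -0.14 to 0.89) and 0.26 (95% interval -0.46 to 0.96). The rule used these genes to set both classes, so the ratios are a description and do not measure a difference between the libraries. UMIs of all 4 genes were found in 19 of 32 control members and 22 of 34 anti-PD-1 members, and of 3 genes in 6 and 4. The sum of the 4 genes ran from 1.12% to 10.2% of UMIs with a median of 2.22% in the control members, and from 1.01% to 10.3% with a median of 4.06% in the anti-PD-1 members. The 3 members nearest the limit were at 1.12%, 1.14% and 1.21% in the control library and at 1.01%, 1.03% and 1.09% in the anti-PD-1 library. The 3 nearest nuclei below it were at 0.954%, 0.910% and 0.784%, and at 0.952%, 0.894% and 0.729%. Between 0.5% and 1% lay 10 and 9 nuclei, and 941 and 718 cardiomyocyte nuclei had no UMI of the 4 genes.

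**Figure D1:**
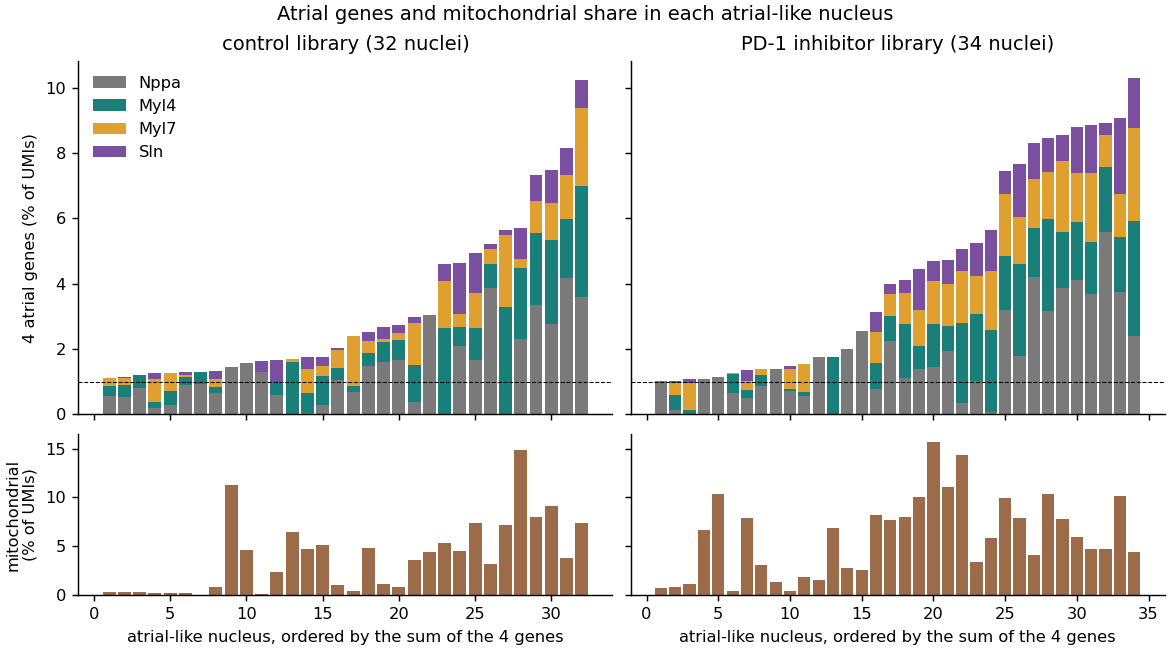
Each bar is 1 atrial-like nucleus, ordered within its library by the share of Nppa, Myl4, Myl7 and Sln in its UMIs (upper panels, percent, stacked by gene; dashed line, the 1% limit), with the share of mitochondrially encoded UMIs below (percent). Bars of Nppa alone occur at shares up to 3.05% in the control library and 2.55% in the anti-PD-1 library, and the 8 control members with the lowest sums have under 1% mitochondrial UMIs.

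UMIs of the 4 genes were also found in nuclei of other classes, which free RNA in droplets can give. Nppa had a UMI in 90.6% of control members and 94.1% of anti-PD-1 members. The share was 9.33% and 9.01% in the other cardiomyocyte nuclei, 4.07% and 4.41% in endothelial-like nuclei (median 957 and 968.5 UMIs), and 4.24% and 4.79% in fibroblast-like nuclei (median 1059 and 1107 UMIs). Thinned to 500 UMIs a nucleus, these shares were 87.5% and 91.2% in members, 4.49% and 3.49% in other cardiomyocyte nuclei, and between 2.06% and 2.51% in the endothelial-like and fibroblast-like nuclei. For Myl7 the other cardiomyocyte nuclei stood at 29.9 and 38.7 CPM, against 30.4 and 35.6 CPM in the endothelial-like and 34.9 and 66.2 CPM in the fibroblast-like nuclei. For Nppa they stood at 115 and 115 CPM, against 47.2 and 45.6 CPM and 46.8 and 92.0 CPM. The highest share of the 4 genes in a fibroblast-like nucleus was 3.76% in the control and 6.43% in the anti-PD-1 library. In the anti-PD-1 library 1 fibroblast-like nucleus held 79 of the 271 Nppa UMIs of the class, and 1 held 30 of the 195 of Myl7. The part of free RNA in these levels was not tested. Of the UMIs of the 4 genes, Nppa took 53.9% (95% Clopper-Pearson interval 49.3 to 58.4) in the control library's other cardiomyocyte nuclei and 36.2% (28.8 to 44.1) in its endothelial-like nuclei, and 53.3% (48.0 to 58.5) and 37.6% (29.3 to 46.4) in the anti-PD-1 library.

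The genes that set the members apart are switched on in the heart by factors of the GATA, NKX2-5 and T-box families, so the 250 bases before the start sites of Nppa, Myl7 and Myl4 are shown to let these letters be seen (RefSeq, GRCm38.p6; Sln is named only). Capitals mark the letters GATAA known from sites of the first family, AAGTG for NKX2-5, and GGTGTGA for T-box factors, each on either strand, and none of the marked runs overlap.
Nppa, chr4:148000472-148000721, plus strand: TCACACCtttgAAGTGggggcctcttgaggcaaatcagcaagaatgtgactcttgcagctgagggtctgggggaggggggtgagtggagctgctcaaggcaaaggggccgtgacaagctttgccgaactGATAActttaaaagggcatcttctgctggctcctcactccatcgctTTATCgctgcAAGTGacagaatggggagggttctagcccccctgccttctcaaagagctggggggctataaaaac
Myl7, chr11:5898783-5899032, minus strand: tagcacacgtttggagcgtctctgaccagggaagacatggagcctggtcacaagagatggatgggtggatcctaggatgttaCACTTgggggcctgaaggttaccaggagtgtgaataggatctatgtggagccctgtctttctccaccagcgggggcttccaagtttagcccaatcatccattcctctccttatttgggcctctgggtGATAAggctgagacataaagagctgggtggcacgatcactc
Myl4, chr11:104550413-104550662, plus strand: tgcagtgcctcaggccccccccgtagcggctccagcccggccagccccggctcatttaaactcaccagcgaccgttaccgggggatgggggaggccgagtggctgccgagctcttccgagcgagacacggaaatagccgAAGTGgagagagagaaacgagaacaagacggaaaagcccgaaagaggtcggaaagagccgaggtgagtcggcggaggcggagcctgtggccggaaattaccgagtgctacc
The Nppa window held 2 matches of GATAA, 2 of AAGTG and 1 of GGTGTGA, the Myl7 window 1 of GATAA and 1 of AAGTG, and the Myl4 window 1 of AAGTG. Of 32851 windows of 250 bases, 22.6% held GATAA, 40.7% held AAGTG and 3.33% held GGTGTGA.

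The members were not uniform. In 3 control and 7 anti-PD-1 members all of the atrial UMIs were of Nppa. In these nuclei Myl2 and Myl3, the ventricular light chains, made 0.979% to 1.35% of UMIs in the control library and 0.290% to 2.04% in the anti-PD-1 library. In the members with a UMI of Sln, Myl4 or Myl7 (29 and 27 nuclei), the median was 0.0551% and 0.114%, and the highest value was 0.374% and 0.990%. The other cardiomyocyte nuclei had medians of 0.446% and 0.634%, and the Nppa-alone members had medians of 1.05% and 0.823%. The shares of the groups did not overlap in the control library. In the anti-PD-1 library they did, since a member with Myl4 UMIs reached 0.990% and an Nppa-alone member stood at 0.290%. Mybphl, Dkk3, Stard10 and Bmp10, which are known from atrial muscle and were not used to choose the members, had no UMI in the 10 nuclei (8162 and 8813 UMIs in all). The other 29 and 27 members had 28 and 34 UMIs of Mybphl in 14 and 15 nuclei. Fgf12, also counted among the atrial genes here, was not absent from all Nppa-alone members. It had no UMI in the 3 control ones, but 9 UMIs in 2 of the 7 anti-PD-1 ones, 8 of them in 1 nucleus. Its level there was 1021 CPM, against 993 CPM in the other anti-PD-1 members. Nppb, which encodes the natriuretic peptide known from strained ventricles, stood at 6371 CPM in the Nppa-alone members and 1792 CPM in the rest of the control members, and at 1702 and 156 CPM in the anti-PD-1 library.

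**Figure D2:**
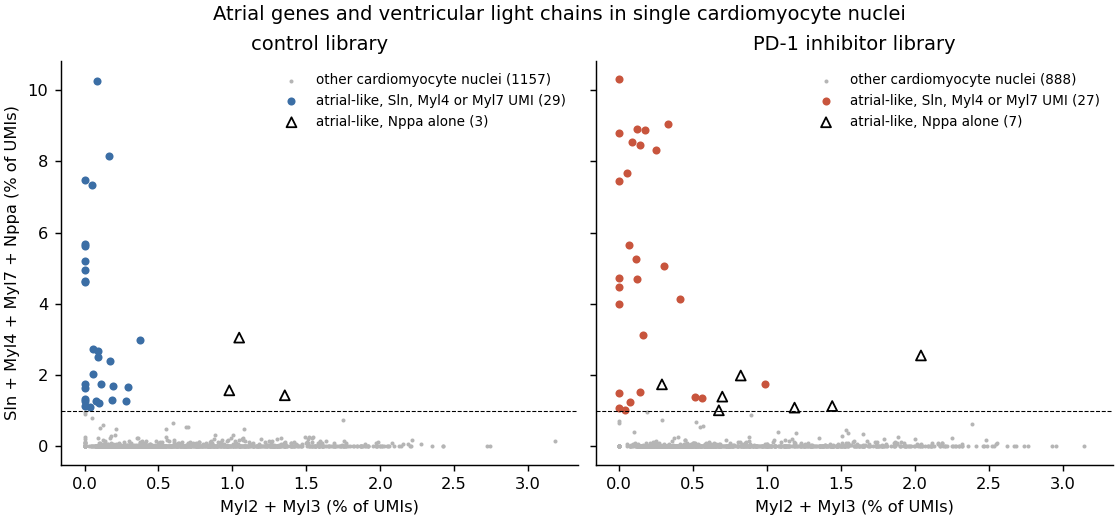
Every cardiomyocyte nucleus by the share of Myl2 and Myl3 (horizontal axis, percent of UMIs) and of Sln, Myl4, Myl7 and Nppa (vertical axis, percent of UMIs), with the 1% limit as a dashed line. Members with a UMI of Sln, Myl4 or Myl7 lie along the vertical axis at light chain shares up to 0.374% in the control library and 0.990% in the anti-PD-1 library, and the 3 and 7 members with Nppa alone (triangles) reach 1.35% and 2.04%.

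The members also differed in mitochondrial share, and the 4 atrial genes moved with it. The median mitochondrial share was 3.69% in control and 5.84% in anti-PD-1 members, above the 0.682% and 1.37% of the other cardiomyocyte nuclei. The nuclear RNA Malat1 had medians of 4.10% and 2.76%, against 7.08% and 6.76%. The 13 control and 8 anti-PD-1 members with at most 2% mitochondrial UMIs had atrial shares of 1.12% to 2.73% and 1.01% to 1.74%, and the 19 and 26 members over 2% reached 10.2% and 10.3%. Across members, Spearman's rho between the atrial and the mitochondrial share was 0.691 over 32 nuclei and 0.450 over 34, a description of nuclei that share a library and of 2 shares of the same total. Fgf12, a cytosolic factor that binds sodium channels, stood at 5998 CPM in the control members with at most 2% and at 356 CPM in those over 2%, and at 2727 and 545 CPM in the anti-PD-1 library. The part of cytoplasmic RNA in these differences was not tested.

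Members made 2.69% (95% Clopper-Pearson interval 1.85 to 3.78) of cardiomyocyte nuclei in the control library and 3.69% (95% Clopper-Pearson interval 2.57 to 5.12) in the anti-PD-1 library. The ratio of the shares was 1.37 (95% interval 0.820 to 2.29), an interval for the counting of nuclei and not for differences between hearts. Without the members with Nppa alone the shares were 2.45% and 2.95%.

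Among genes that the selection did not use, those known from atrial muscle were higher in the members of both libraries. Genes were compared when the mean level of the 2 classes was at least 100 CPM, and the ratio was taken in each library with 0.5 UMI added to each sum. Of 19 other atrial genes 11 were compared, and 10 of these were at least 2-fold higher in both libraries, where 4.79% of all 1755 genes compared were. The median log2 ratio of the 11 was 3.45 and 2.85 in the control and the anti-PD-1 library, against 0.09 and 0.04 over all genes. The secreted ligand Bmp10 had 35 UMIs in 9 control members and 4 UMIs in 2 anti-PD-1 members, and 2 UMIs and 1 UMI in all other cardiomyocyte nuclei. Its log2 ratio was 9.52 (95% interval 7.86 to 12.93) in the control library and 6.39 (95% interval 3.47 to 12.43) in the anti-PD-1 library. The myosin-binding protein H-like gene Mybphl had 28 and 34 UMIs in 14 and 15 members, or 646 and 565 CPM against 8.02 and 5.35 CPM, with a log2 ratio of 6.32 (95% interval 5.43 to 7.27) in the control library and 6.67 (95% interval 5.63 to 7.97) in the anti-PD-1 library. Dkk3, a secreted glycoprotein of the Dickkopf family, stood at 369 and 399 CPM against 9.80 and 4.76 CPM (log2 ratios 5.25 and 6.33). Stard10, a lipid transfer protein, had log2 ratios of 4.57 and 4.57. Fgf12 had 117 and 60 UMIs and log2 ratios of 5.34 and 5.66, with 53 of the control UMIs in 1 nucleus.

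Abundant members of the list gave the narrowest intervals. Pam, the enzyme that amidates peptides and a main membrane protein of atrial granules, stood at 4202 and 3308 CPM in members of the control and the anti-PD-1 library against 606 and 547 CPM, a log2 ratio of 2.80 (95% interval 2.56 to 3.02) in the control library and 2.60 (95% interval 2.37 to 2.82) in the anti-PD-1 library. Clu, which encodes the secreted chaperone clusterin, had a log2 ratio of 2.70 (95% interval 2.34 to 3.03) in the control library and 2.56 (95% interval 2.27 to 2.84) in the anti-PD-1 library. Kcnj3, the pore subunit of the acetylcholine-activated potassium channel, had 64 and 72 UMIs in 21 and 19 members and a log2 ratio of 2.43 (95% interval 2.03 to 2.79) in the control library and 2.85 (95% interval 2.45 to 3.22) in the anti-PD-1 library. Its partner Kcnj5 was below the minimum level, with 4 and 6 UMIs, 92.3 and 99.7 CPM against 32.5 and 32.1 CPM. The growth factor Angpt1 had log2 ratios of 3.27 and 2.15 and the T-box factor Tbx5 of 3.45 and 1.60. Chrm2, the muscarinic receptor that acts on this channel, was the 1 compared gene under 2-fold, at log2 ratios of 0.76 and 0.63. The potassium channel gene Kcna5 had no UMI in members.

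**Figure D3:**
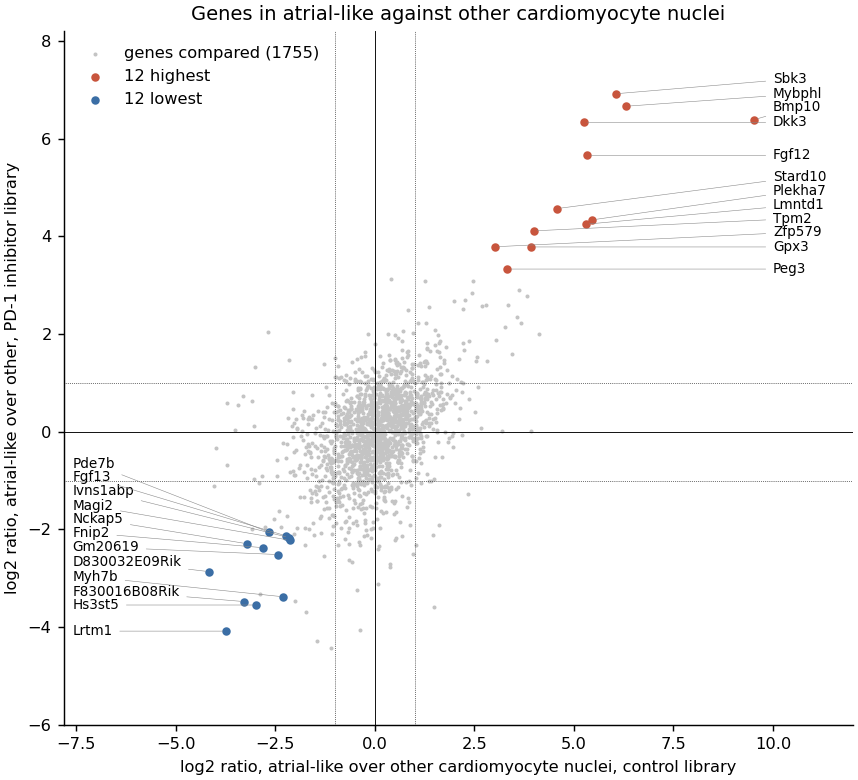
Log2 ratio of atrial-like over other cardiomyocyte nuclei for 1755 genes in the control library (horizontal axis) and the anti-PD-1 library (vertical axis), with dotted lines at 2-fold and the rule genes left out. The 12 highest genes by the library closer to 0 (red) lie above 3 on both axes, and the 12 lowest (blue) lie below -2 on both.

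Of the 1755 genes, 84 were at least 2-fold higher in members in both libraries, and 45 of these had at least 10 UMIs in the members of each library. At the minimum level of 100 CPM the members held about 4.33 and 6.02 UMIs of a gene, so ratios near 2-fold of genes close to it lie within counting error. Beside Bmp10, Mybphl, Fgf12, Dkk3 and Stard10, the 12 highest were Sbk3, Plekha7, Lmntd1, Tpm2, Gpx3, Peg3 and Zfp579. Gpx3, the secreted glutathione peroxidase, was the best measured of them with 84 UMIs in 26 control members and 117 in 24 anti-PD-1 members, or 1939 and 1945 CPM against 127 and 142 CPM. Its log2 ratio was 3.93 (95% interval 3.56 to 4.28) in the control library and 3.78 (95% interval 3.45 to 4.11) in the anti-PD-1 library. The protein kinase gene Sbk3 stood at 416 and 316 CPM against 6.24 and 2.38 CPM, with log2 ratios of 6.05 and 6.92. Zfp579, a zinc finger gene with log2 ratios of 3.02 and 3.79, lies next to it at chr7:4983483-4996158 (GRCm38), on the minus strand as Sbk3 at chr7:4965260-4971168, and their spans do not overlap. Plekha7, a protein of adherens junctions, had log2 ratios of 5.47 and 4.34, with 9 of its 17 control UMIs in 1 nucleus. The tropomyosin gene Tpm2 had log2 ratios of 3.99 and 4.11, the paternally expressed Peg3 of 3.33 and 3.33 and Lmntd1, which encodes a lamin tail domain protein, of 5.29 and 4.25, each from 6 to 15 UMIs in the members of a library.

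The ventricular light chains and phospholamban were lower in members, and only Myl2 passed 2-fold in both libraries. Of 9 ventricular genes 4 were compared and 1, Myl2, was at least 2-fold lower in both, where 3.99% of all genes compared were. Myl2 stood at 1201 and 1862 CPM against 3211 and 4254 CPM, a log2 ratio of -1.41 (95% interval -1.84 to -1.03) in the control library and -1.19 (95% interval -1.47 to -0.92) in the anti-PD-1 library. Myl3 had log2 ratios of -0.90 and -1.05 and Pln of -1.04 and -0.83. The slow myosin heavy chain gene Myh7, the other compared gene of the list, stood at 162 and 266 CPM in members against 107 and 96.4 CPM. Endothelial-like nuclei held Myl2 at 407 and 461 CPM. In the members with a UMI of Sln, Myl4 or Myl7, Myl2 stood at 427 and 1013 CPM, and in those with Nppa alone at 4533 and 6808 CPM. Irx4, a ventricular transcription factor, had no UMI in members and stood at 61.9 and 50.6 CPM in the other nuclei, near the level of 3 counts in the members.

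In all, 70 of the 1755 genes were at least 2-fold lower in members in both libraries. Many of them had under 10 UMIs in the members of a library, since the minimum level is a mean of the 2 classes. With ribosomal protein genes, which are given as a group, left out of the order, the 12 lowest were Lrtm1, F830016B08Rik, Hs3st5, D830032E09Rik, Gm20619, Fnip2, Myh7b, Nckap5, Ivns1abp, Magi2, Fgf13 and Pde7b. The best measured were Ivns1abp, whose product binds actin, and the sodium channel partner Fgf13. Ivns1abp had 19 and 29 UMIs in members, 439 and 482 CPM against 1998 and 2204 CPM, with a log2 ratio of -2.15 (95% interval -2.92 to -1.54) in the control library and -2.17 (95% interval -2.77 to -1.67) in the anti-PD-1 library. Fgf13 had 16 and 15 UMIs and a log2 ratio of -2.23 (95% interval -3.08 to -1.57) in the control library and -2.13 (95% interval -3.02 to -1.46) in the anti-PD-1 library, while its relative Fgf12 was among the highest genes. The scaffold gene Magi2 had 15 and 13 UMIs and log2 ratios of -2.14 and -2.22. The other 9 had 0 to 4 UMIs in the members of a library. Lrtm1, which encodes a leucine-rich repeat membrane protein, had 1 UMI in each library against 459 and 422 CPM in the other nuclei, with a log2 ratio of -3.73 (95% interval -9.62 to -1.83) in the control library and -4.08 (95% interval -9.97 to -2.18) in the anti-PD-1 library. Myh7b, a myosin heavy chain gene, had 4 and 2 UMIs against 511 and 432 CPM, with log2 ratios of -2.30 and -3.38. The unnamed transcript D830032E09Rik had no UMI in the control members, which put it at least 2.99-fold lower there. The spans of the 70 lower genes had a median of 111 kb, those of the 84 higher genes 31.3 kb and those of all compared genes 43.9 kb, beside the lower Malat1 share of members. Divided by a total without the rule, mitochondrial and ribosomal protein genes, 122 genes of 2082 compared were higher and 65 lower, 65.2% of them higher against 54.5% of the 84 and 70 genes.

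**Figure D4:**
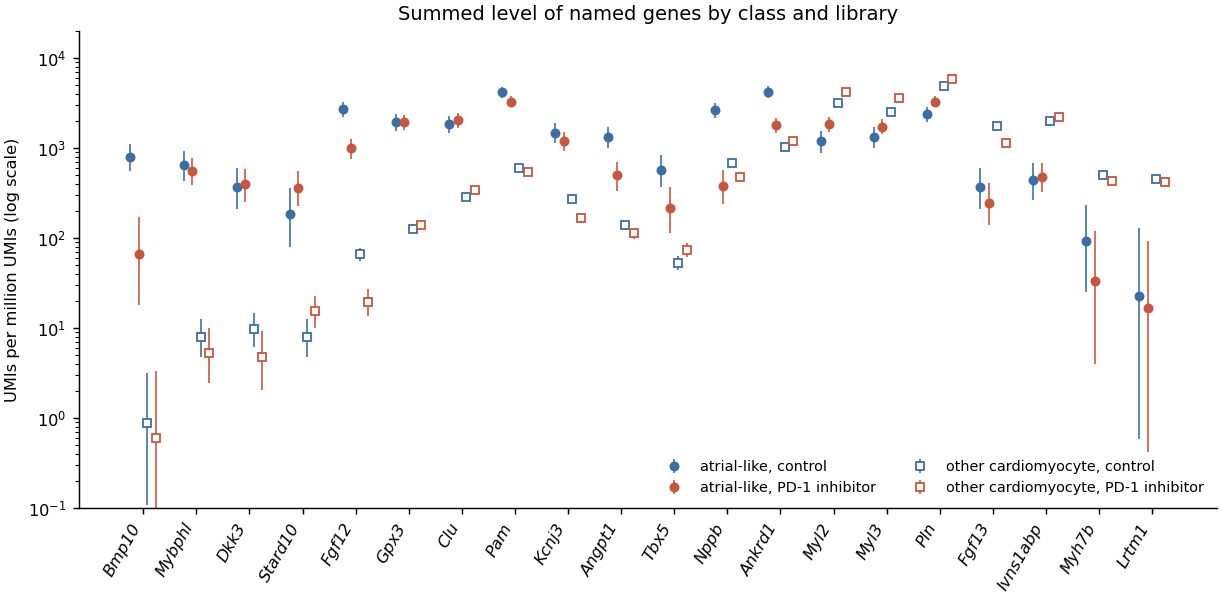
Summed level of 20 genes in CPM (log axis) in atrial-like (filled circles) and other cardiomyocyte nuclei (open squares) of the control (blue) and the anti-PD-1 library (red), with 95% Poisson intervals for counting error. The genes from Bmp10 to Tbx5 are higher in members of both libraries, Nppb stands at 2655 CPM in the control members and 382 CPM in the anti-PD-1 members, and the genes from Myl2 on are lower in members.

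By its medians, the contractile machinery that both kinds of muscle share was close between the classes. All 25 sarcomere genes were compared, with median log2 ratios of 0.22 and -0.17, and the single gene past 2-fold in both libraries was Myl2. Over all 1755 genes compared, 4.79% were at least 2-fold higher and 3.99% lower in both libraries, so counts this low do not set a list apart. Actc1, the cardiac actin, had log2 ratios of 0.62 and 0.30, and the troponin gene Tnni3 of 0.29 and 0.48. Of 18 calcium handling genes 14 were compared and none passed 2-fold in both libraries, with medians of -0.41 and -0.82. The calcium pump Atp2a2 had log2 ratios of 0.22 and 0.10, and Cacna1c, the pore of the L-type calcium channel, of -0.93 and -2.31. Of 21 ion channel genes 8 were compared. Kcnj3 was higher, while Kcnd2, which carries the transient outward current, at -1.35 and -1.72, the calcium-activated potassium channel Kcnn2 at -1.07 and -1.71 and the channel regulator Abcc9 at -1.61 and -1.44 were at least 2-fold lower in both libraries. Of the 8 genes 1 was thus higher and 3 lower, where 4.79% and 3.99% of all genes compared were. The 3 lower ones had 24 and 15, 10 and 5, and 5 and 8 UMIs in members. Under the alternatives described below, the smallest differences were -0.75 and -0.83 for Kcnd2, -0.23 and -1.52 for Kcnn2, and -1.16 and -0.66 for Abcc9. The 8 genes had medians of -0.45 and -0.59.

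Among natriuretic peptide and granule genes 5 of 13 were compared, and Pam and the natriuretic peptide clearance receptor Npr3 (log2 ratios 1.62 and 1.62) were at least 2-fold higher in both libraries. The medians of the 5 were 1.62 and -0.31. Corin, the protease that cleaves the Nppa precursor, had log2 ratios of 0.88 and -0.79. The granins Chga, Chgb and Scg2 had no UMI in members. Of 10 autonomic and hormone receptor genes 2 were compared, Chrm2 and Rgs6 (log2 ratios 1.41 and 0.60), a brake on signals from this receptor. Of 19 cardiac transcription factor genes 9 were compared, with medians of 0.06 and -0.64, and Tbx5 was the 1 gene past 2-fold in both libraries. Gata4 had log2 ratios of 0.21 and -0.34 and Mef2a of -0.11 and 0.26. Of 12 junction genes 9 were compared and none passed 2-fold in both libraries (medians 0.15 and 0.02). Over all genes compared, 4.79% were at least 2-fold higher and 3.99% lower in both libraries, so a low count in lists this short says little about them. Gja5, the connexin known from atrial and conduction tissue, had 2 and 3 UMIs in members against 2.23 and 3.57 CPM in the other nuclei, below the minimum level. None of the 15 conduction system genes reached the minimum level, but 11 had a UMI in members, with 14 and 19 UMIs in all. The list summed to 323 and 316 CPM in members against 209 and 239 CPM in the other cardiomyocyte nuclei. Its log2 ratios were 0.68 and 0.44, and the counting intervals spanned equal levels in both libraries. Hcn4, Isl1, Shox2 and Tbx18, which mark the sinus node, had no UMI in members. Such genes could still lie at up to the level of 3 counts, so their absence was not shown.

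Markers of other cell types were at low levels in members, and those of endothelial cells and fibroblasts were higher in the anti-PD-1 members than in the control members. Endothelial markers summed to 508 and 1147 CPM in control and anti-PD-1 members, against 474 and 554 CPM in the other cardiomyocyte nuclei. Fibroblast markers summed to 2216 and 3191 CPM against 1443 and 1874 CPM, of which Gsn, also an actin-severing protein of muscle, gave 1385 and 1712 CPM. They reached 1% of UMIs in 1 control and 2 anti-PD-1 members, with a highest share of 6.32%, and no other list of the 9 did so in any member. Of 10 T cell markers Cd247 had 1 UMI in members, and Cd3e and the other markers had none. The pericyte gene Rgs5 had 8 UMIs in control and 42 in anti-PD-1 members, a log2 ratio of 1.85 (95% interval 0.81 to 3.22), with 21 of the latter in 1 nucleus. Macrophage markers summed to 185 and 382 CPM and mural cell markers to 808 and 1064 CPM. Mesothelial, B cell, adipocyte and glial markers each had 5 to 20 UMIs in the members of a library, from 6, 4, 5 and 3 of the 10 markers. Wt1, Cd79a, Adipoq and Sox10 were among those without a UMI. Glial markers, from 7 and 9 UMIs, summed to 162 and 150 CPM against 52.1 and 41.0 CPM in the other cardiomyocyte nuclei. Their log2 ratios were 1.73 (95% interval 0.29 to 2.72) and 1.93 (95% interval 0.68 to 2.87). For the mesothelial, B cell and adipocyte lists the intervals spanned equal levels in both libraries. The part of other cells' RNA in the differences between classes and libraries was not tested.

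The anti-PD-1 library was compared with the control library for 78 genes, those with 100 or more UMIs in members, rule genes and mitochondrially encoded genes included. Of these, 6 (7.69%) were at least 2-fold higher and 5 (6.41%) at least 2-fold lower in the anti-PD-1 members, and the median log2 ratio was 0.14. In the other cardiomyocyte nuclei none of these 78 genes was 2-fold higher and 1 was 2-fold lower, with a median of 0.26. These counts cannot be set against each other as they stand. Members held 43314 and 60164 UMIs in all and the other nuclei 2244203 and 1681250, so counting error is larger in members. The 78 genes were also chosen by their UMIs in members, and a gene could reach 100 through 1 library alone. The lower genes were led by Nppb, with 115 UMIs in 19 of 32 control members and 23 UMIs in 9 of 34 anti-PD-1 members. Its level was 2655 CPM (95% interval 2192 to 3187) in the control members and 382 CPM (95% interval 242 to 574) in the anti-PD-1 members, a log2 ratio of -2.77 (95% interval -3.51 to -2.14). In the other cardiomyocyte nuclei Nppb stood at 684 and 484 CPM, a log2 ratio of -0.50 (95% interval -0.62 to -0.37), and in endothelial-like nuclei at 26.4 and 25.5 CPM. Of the 115 control UMIs 52 were in the 3 members with Nppa alone, 33 of them in 1 nucleus. The lower level was found in every subset of members examined, but these subsets overlap and were chosen after seeing the data. The log2 ratio was -3.45 (95% interval -4.80 to -2.46) without the members with Nppa alone and -1.87 (95% interval -2.84 to -1.05) within them. It was -2.51 (95% interval -4.12 to -1.40) in members with at most 2% mitochondrial UMIs and -2.75 (95% interval -3.65 to -1.99) in those over 2%.

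Ankrd1, a stress-responsive ankyrin repeat protein of the sarcomere and nucleus, had 183 UMIs in control and 109 in anti-PD-1 members, or 4225 and 1812 CPM, a log2 ratio of -1.22 (95% interval -1.58 to -0.87). In the other cardiomyocyte nuclei it stood at 1041 and 1215 CPM, a log2 ratio of 0.22 (95% interval 0.14 to 0.31). The difference in members was largest in those with at most 2% mitochondrial UMIs, -3.70 (95% interval -5.49 to -2.57), and -0.54 (95% interval -0.97 to -0.10) in those over 2%. With members chosen by Sln, Myl4 and Myl7 alone it turned to 0.34. Fgf12 stood at 2701 and 997 CPM in members (log2 ratio -1.43, 95% interval -1.91 to -0.98) and at 66.8 and 19.6 CPM in the other nuclei (log2 ratio -1.75, 95% interval -2.36 to -1.22). In members over 2% mitochondrial UMIs its log2 ratio was 0.57 (95% interval -0.52 to 1.89). Erbb4, the neuregulin receptor, had log2 ratios of -1.40 in members and -0.61 in the other nuclei, and the sodium-calcium exchanger Slc8a1 of -1.16 and -0.86. Slc8a1 also turned, to 0.32, with members chosen without Nppa. Dmd, Pcdh7 and Ldb3, which encode dystrophin, a protocadherin and a Z-disc protein, were under 2-fold lower, at -0.85, -0.84 and -0.79 in members and -0.57, -0.57 and -0.06 in the other nuclei.

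**Figure D5:**
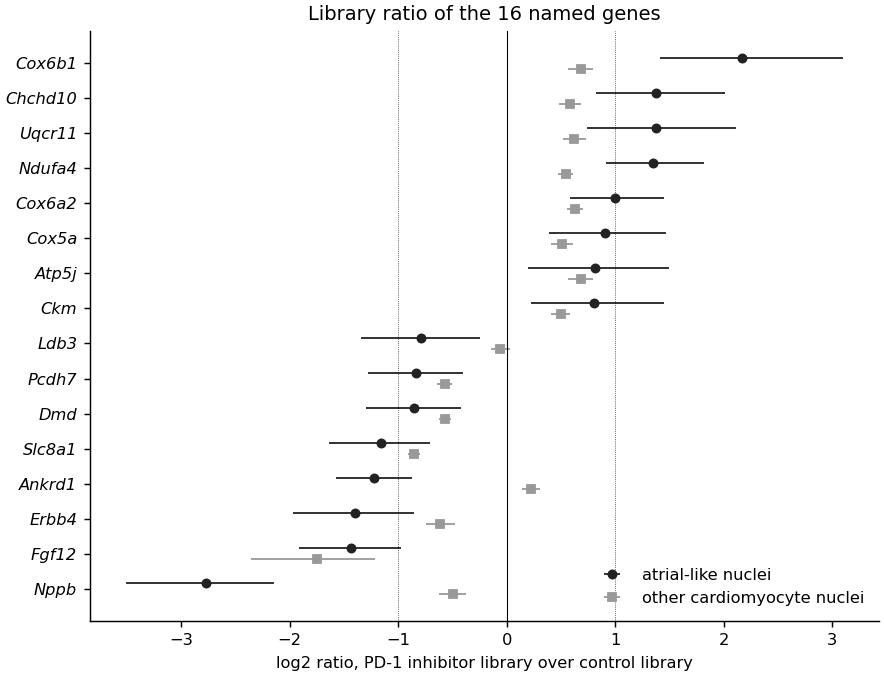
Log2 ratio of the PD-1 inhibitor over the control library (horizontal axis) in atrial-like (black circles) and other cardiomyocyte nuclei (grey squares) for the 8 highest and 8 lowest genes with at least 100 UMIs in members, with 95% intervals for counting error and dotted lines at 2-fold. Nppb is lowest at -2.77 in members against -0.50 in the other nuclei, Ankrd1 lies on opposite sides of 0 in the classes, and Cox6b1 is highest at 2.16 against 0.68.

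The 6 genes at least 2-fold higher in the anti-PD-1 members were Cox6b1, Chchd10, Uqcr11, Ndufa4, Cox6a2 and the mitochondrially encoded mt-Nd3. Of the 7 mitochondrially encoded genes among the 78 this was the 1 past 2-fold, and of 5 fatty acid and energy genes none was. Cox6b1, a subunit of cytochrome c oxidase, had 15 UMIs in 11 control members and 96 in 23 anti-PD-1 members, or 346 and 1596 CPM, a log2 ratio of 2.16 (95% interval 1.41 to 3.10). In the other cardiomyocyte nuclei it was 487 and 779.8 CPM, a log2 ratio of 0.68 (95% interval 0.56 to 0.80). Ndufa4, a subunit of the same complex, stood at 1247 and 3191 CPM (log2 ratio 1.35, 95% interval 0.91 to 1.82), Chchd10, of the space between the mitochondrial membranes, at 739 and 1945 CPM (log2 ratio 1.38, 95% interval 0.82 to 2.01) and Uqcr11, of complex III, at 554 and 1463 CPM (log2 ratio 1.38, 95% interval 0.74 to 2.12). Cox6a2, Cox5a, the ATP synthase gene Atp5j and the muscle creatine kinase gene Ckm had log2 ratios of 1.00, 0.90, 0.81 and 0.81, against 0.63, 0.51, 0.68 and 0.50 in the other nuclei. The spans of the 8 named higher genes ran from 0.953 to 18.1 kb, and 5 of the 8 lower ones were over 100 kb.

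Mitochondrially encoded genes summed to 37978 and 65238 CPM in members, a log2 ratio of 0.78 (95% interval 0.70 to 0.86), and to 29342 and 38395 CPM in the other cardiomyocyte nuclei, a log2 ratio of 0.39. Against the other cardiomyocyte nuclei, 7 of the 13 genes were compared, with medians of 0.46 and 0.77. None passed 2-fold in both libraries, where 4.79% of all genes compared were higher and 3.99% lower. Ribosomal protein genes had summed log2 ratios of 0.63 in members and 0.54 in the other nuclei. Within members over 2% mitochondrial UMIs, Cox6b1 had a log2 ratio of 1.78 (95% interval 0.98 to 2.79) and Ndufa4 of 1.00. Within those at most 2% the values were 2.46 (95% interval 0.43 to 5.95) from 2 and 9 UMIs, and 1.22 (95% interval -0.34 to 3.01) from 6 and 10. Without the member of 10849 UMIs they were 2.33 (95% interval 1.57 to 3.26) for Cox6b1 and 1.38 (95% interval 0.94 to 1.86) for Ndufa4. The part of the mitochondrial share in these differences was not tested.

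Some atrial genes with fewer UMIs also differed between the libraries. Bmp10 stood at 808 CPM (95% interval 563 to 1124) in the control members and 66.5 CPM (95% interval 18.1 to 170.2) in the anti-PD-1 members, a log2 ratio of -3.45 (95% interval -5.56 to -2.12), and 12 of its 35 control UMIs were in 1 nucleus. Mybphl, Dkk3 and Gpx3 had log2 ratios of -0.20 (95% interval -0.96 to 0.58), 0.10 (95% interval -0.86 to 1.12) and 0.00 (95% interval -0.41 to 0.43), intervals that include 0. Tbx5 had 25 and 13 UMIs and a log2 ratio of -1.39 (95% interval -2.51 to -0.40) in members and 0.46 (95% interval 0.09 to 0.84) in the other nuclei. Gja1, the main connexin of working muscle, had 39 and 16 UMIs and log2 ratios of -1.73 (95% interval -2.70 to -0.89) in members and 0.10 in the other nuclei. Of 13 immediate early genes, which respond within minutes to stimulation, Fos had 17 UMIs in 7 control members and none in the anti-PD-1 members, at least 7.87-fold lower. Nr4a1 had 23 and 4 UMIs, a log2 ratio of -2.86 (95% interval -4.99 to -1.45). In the other cardiomyocyte nuclei Fos and Nr4a1 had log2 ratios of -3.28 (95% interval -5.08 to -2.12) and -1.20 (95% interval -1.63 to -0.80). In members with at most 2% mitochondrial UMIs lay all 17 Fos UMIs, from 13 such nuclei in the control library against 8 in the anti-PD-1 library.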

How the data were processed

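Single-nucleus RNA-seq was made with the GEXSCOPE kit on 1 control and 1 PD-1 inhibitor heart library. The authors deposited raw UMI counts per gene and nucleus (GRCm38/mm10 per the submitters' processing notes), and the aligner, the counting and its use of strand, and the filter on barcodes are not given in the sources used here. Overlapping genes such as Mybphl and Gm12522 may therefore share reads.

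Counts were summed over the nuclei of a class in each library and divided by the summed total. Log2 ratios had 0.5 UMI added. Genes were compared between classes from a mean of 100 CPM, the 10 rule genes left out, and between libraries from 100 UMIs in members. Intervals at 95% were exact Poisson for levels, Clopper-Pearson for shares and conditional binomial for ratios. Endothelial-like and fibroblast-like nuclei were nuclei outside the cardiomyocyte limit with at least 1% of UMIs from 10 markers of that type and under 1% from the other list. Nuclei of 1 library are not replicates, so nothing was tested. The text names the rule genes, genes of 24 lists, the 12 highest and 12 lowest genes between classes, ranked by the library with the ratio closer to 0, and the 8 highest and 8 lowest between libraries, with mitochondrially encoded and ribosomal protein genes as groups. The members and lists were chosen with earlier results of these data known. The scripts were tested on simulated data. Alternatives changed the limits, doublets, depth, total, weighting, minimum and fold. Python 3.11.15, numpy 2.4.6, scipy 1.17.1, pandas 2.3.3, scanpy 1.11.5 (with its Scrublet) and matplotlib 3.10.9 were used. Gene spans came from GENCODE vM21 for 32522 of 32589 gene IDs, and promoters from RefSeq.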

Additional observations from a re-analysis of the deposited data

Results flagged for a closer look

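The log2 ratio of the PD-1 inhibitor over the control library for Ankrd1 had opposite signs in the 2 classes, -1.22 in atrial-like and 0.22 in other cardiomyocyte nuclei. With 1 library per condition the difference was not tested, and it was absent when members were chosen by Sln, Myl4 and Myl7 alone (0.34).

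Nuclei under the cardiomyocyte limit also held atrial RNA. In the control library 12 and in the anti-PD-1 library 18 such nuclei, which entered no comparison, had Sln, Myl4, Myl7 and Nppa at 1% or more of UMIs, with medians of 3.38% and 1.98%. The 6 cardiomyocyte genes made at least 1% of UMIs in 11 and 15 of them, with medians of 2.33% and 1.93%. Mybphl had 8 and 7 UMIs in them and Dkk3 14 and 6. Bmp10 had 17 UMIs in 5 control nuclei and 2 in 1 anti-PD-1 nucleus. Nppb had 17 UMIs among 21668 in the control library and 14 among 33027 in the anti-PD-1 library. Scrublet called 0 and 1 of the nuclei doublets.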

How the results depend on the processing

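No paired analysis was possible because each condition was 1 library and no test was made, and no replicate could be left out. At 0.5%, 11 genes were at least 2-fold lower in the anti-PD-1 members. At 2% the members made 1.43% and 2.17% of cardiomyocyte nuclei, 209 genes were higher and 145 lower than in other cardiomyocyte nuclei in both libraries, and 1 gene was lower in the anti-PD-1 members. Chosen by Sln, Myl4 and Myl7 without Nppa, members made 1.68% and 2.28%, with 229 genes higher and 156 lower, and 2 higher and 0 lower in the anti-PD-1 members, where Nppb was at -3.51 but under the minimum of 100 UMIs. There the log2 ratio over control turned to 0.34 for Ankrd1 and 0.32 for Slc8a1, and the ratio over other cardiomyocyte nuclei to -0.37 for Ccn2 in the anti-PD-1 library. The genes higher than in other cardiomyocyte nuclei were 186 with a cardiomyocyte limit of 5%, 188 with a mitochondrial limit of 5% and 182 after thinning to 500 UMIs. The genes higher in the anti-PD-1 members were 3 with the mitochondrial limit, 1 after thinning, with 1 lower, and 11 as a mean over nuclei, under which Btg2 stood at -0.18 against other cardiomyocyte nuclei of the anti-PD-1 library. Without members of at least 1% Myl2 and Myl3, 3 genes were lower in the anti-PD-1 members. A minimum of 50 gave 246 higher and 141 lower genes between classes and 23 and 22 between libraries, a minimum of 200 gave 27 and 36, and 2 and 1, and 1.5-fold in place of 2-fold gave 208 and 169, and 25 and 10.

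Leaving out the members with Nppa alone or the member of 10849 UMIs, and splitting members at 2% mitochondrial UMIs, were chosen after seeing the data. Without the members with Nppa alone 2 genes were lower in the anti-PD-1 members, and in members over 2% mitochondrial UMIs Fgf12 stood at 0.57. The cause of these shifts was not tested, except that fewer members or UMIs leave fewer counts behind a ratio. Over all alternatives 1266 of 1430 ratios between classes and 230 of 270 between libraries stayed inside the counting interval of the main result. These intervals are wide for genes with few UMIs, so staying inside them says little for such genes. Of the 6 genes higher in the anti-PD-1 members none was again 2-fold higher with the cardiomyocyte limit of 5%, the mitochondrial limit of 5% or thinning, and 1 was without Nppa in the limit. Of the 5 lower genes none was again 2-fold lower at the 2% limit, without Nppa in the limit or after thinning. A gene under 100 UMIs counts as lost here. Nppb stayed between -3.54 and -1.53, and Cox6b1 between 1.47 and 2.46. Of the 84 higher genes 48 to 84 were again at least 2-fold higher under the alternatives other than the minimum of 200, and 27 under that one. A total without rule, mitochondrial and ribosomal protein genes raised the median ratio over all genes by 0.07 in the control and 0.10 in the anti-PD-1 library. With 1 library per condition no difference can be set against the spread between animals. Genes at the minimum level in members rest on about 4.33 and 6.02 UMIs there, and genes lower in members can rest on fewer.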

Other observations

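By their medians, fatty acid and energy genes were close between members and other cardiomyocyte nuclei. Of 20 genes 16 were compared, with medians of -0.32 and -0.20 in the control and the anti-PD-1 library. None passed 2-fold in both libraries, where 4.79% of all genes compared were higher and 3.99% lower, so this count does not set the list apart. The fatty acid carrier Fabp3 had log2 ratios of -0.27 and -0.43, the lipoprotein lipase gene Lpl of -0.76 and -0.68 and myoglobin (Mb) of 0.15 and 0.14. Interferon and antigen presentation genes were close as well, with 4 of 14 compared, medians of 0.33 and 0.18 and summed levels of 1870.1 and 1862 CPM in members. Cd274, which encodes the ligand of the receptor that the antibody binds, had no UMI in members. Clock genes had 2 of 13 compared, with medians of 0.39 and -0.05.

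The summed stress response and immediate early genes were higher in members of the control library than in its other cardiomyocyte nuclei. Stress response genes summed to 8449.9 against 3245 CPM in the control library and to 5103 against 3506 CPM in the anti-PD-1 library, with 7 of 12 genes compared, 1 at least 2-fold higher in both libraries and medians of 1.26 and 0.58. Ankrd1 gave 4225 and 1812 CPM of the sums in members. That gene was the matricellular Ccn2, with log2 ratios of 3.04 and 1.87, and it stood at -0.37 in the anti-PD-1 library with members chosen without Nppa. The small heat shock protein gene Cryab had log2 ratios of 1.26 and 0.69. Immediate early genes summed to 1939 against 514 CPM and to 382 against 357 CPM, with 3 of 13 genes compared and medians of 2.58 and 0.92. Btg2, a gene that slows the cell cycle, was at least 2-fold higher in both libraries from 13 and 5 UMIs, with log2 ratios of 2.83 and 1.44, but stood at -0.18 in the anti-PD-1 library as a mean over nuclei. Of 79 ribosomal protein genes 26 were compared, with medians of 0.37 and 0.68, and Rpl3l, a form made in heart and skeletal muscle, was at least 2-fold lower in both libraries, with log2 ratios of -2.88 and -3.32. Over all genes compared, 4.79% were at least 2-fold higher and 3.99% lower in both libraries.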
